A study of Mus musculus with 8 samples.

Results

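The genes described here are 9 genes of the B cell precursor program, Cd79a, Cd79b, Pax5, Ebf1, Vpreb1, Igll1, Ighm, Blnk and Rag1, chosen by name and found in the deposited counts through their Ensembl identifiers and GENCODE M21 symbols. All 9 were present among the 13305 genes of the table. RNA of whole bone marrow (BM) from 8 mice with acute myeloid leukemia (AML) was sequenced, with 1 library per mouse. Every mouse was of the strain C57BL/6N and carried Mx1-Cre, 1 deleted copy of the DNA methyltransferase gene Dnmt3a (Dnmt3a+/-) and an internal tandem duplication of the receptor gene Flt3 on both alleles (Flt3ITD/ITD). The mice differed in Gab2, which encodes an adaptor protein of receptor signaling: 3 were Gab2+/+ (AML WT), 2 were Gab2+/- (AML HET) and 3 were Gab2-/- (AML KO). Mx1-Cre is driven by an interferon-responsive promoter and is not restricted to one blood lineage, and the Flt3 and Gab2 alleles are present in every cell from conception. No BM of mice without AML was sequenced in this series, and the age of the 8 mice is not given in the sources used here.

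B cells arise in the BM from lymphoid progenitors. Ebf1 and Pax5 are transcription factors that set up and hold B cell identity, and the Rag1 recombinase cuts the immunoglobulin loci so that a heavy chain can be assembled. The heavy chain Ighm is first displayed with a surrogate light chain made of Vpreb1 and Igll1. This pre-B cell receptor signals through the paired subunits Cd79a (Ig alpha) and Cd79b (Ig beta) and the adaptor Blnk, after which a conventional light chain replaces the surrogate. Flt3 itself is a receptor of early lymphoid progenitors. The question addressed was whether these genes were present at different levels in leukemic BM with 2, 1 or 0 functional Gab2 alleles.

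Several of these genes are textbook targets of Ebf1 and of the E proteins, which bind the E box CAGNTG. The promoters of 3 genes are shown because their genes had different patterns over the mice: Cd79a and Rag1 had very low levels in 1 mouse described below, and Igll1 did not. The sequences come from RefSeq (GRCm38.p6) and hold the 250 bases before the RefSeq start site, except that for Cd79a the 134 bases that also precede its GENCODE start were printed. Capitals mark CAGNTG on either strand and, in Igll1, CCCNNGGG, a core of the Ebf1 motif. Cd79a lies at chr7:24897247-24897380 on the plus strand, Igll1 at chr16:16863986-16864235 on the minus strand and Rag1 at chr2:101649533-101649782 on the minus strand.
Cd79a: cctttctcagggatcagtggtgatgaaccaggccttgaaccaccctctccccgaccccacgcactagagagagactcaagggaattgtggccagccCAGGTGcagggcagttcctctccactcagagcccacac
Igll1: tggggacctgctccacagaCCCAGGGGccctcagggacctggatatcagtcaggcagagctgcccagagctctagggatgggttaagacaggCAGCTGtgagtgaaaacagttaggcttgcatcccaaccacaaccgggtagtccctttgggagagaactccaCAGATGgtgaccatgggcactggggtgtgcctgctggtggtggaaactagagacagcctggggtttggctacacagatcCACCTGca
Rag1: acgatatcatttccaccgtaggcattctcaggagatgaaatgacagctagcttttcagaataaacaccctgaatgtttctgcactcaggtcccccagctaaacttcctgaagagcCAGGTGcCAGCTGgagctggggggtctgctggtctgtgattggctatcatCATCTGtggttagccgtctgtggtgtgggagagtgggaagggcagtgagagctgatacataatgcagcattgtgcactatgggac
Of the 9 genes, 7 had a window in the table, and 5 of these held CAGNTG, against 44.8% of all 32851 windows of this length. CCCNNGGG was found in 1 of them, against 11.8% of all windows. Distances are to the RefSeq start site, which in Cd79a lies beyond the end of the printed bases. The first base of the E box was 154 bases before that site in Cd79a. In Igll1 the first bases were 158, 87 and 8 bases before the start, and in Rag1 135, 128 and 85 bases. All 3 genes shown held an E box. The windows of Pax5, which was also very low in the mouse described below, and of Ebf1 held none and are not shown. These matches are a description of the letters and not of binding.

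The libraries held 28009258 to 39266815 counts on genes. Levels are given as CPM, which are counts scaled to a library size normalized by edgeR's TMM method. Gab2, the targeted gene, had a level of 93.9, 68.5 and 61.6 CPM in AML WT, 55.8 and 50.8 CPM in AML HET and 35.0, 47.2 and 40.2 CPM in AML KO mice. The ranges of the 3 groups did not overlap and fell with the number of Gab2 alleles (AML KO against AML WT, log2 fold change −0.87, SE 0.18, edgeR's quasi-likelihood test, adjusted p = 0.042). With single mice left out, this adjusted p was over 0.05 in 6 of 8 fits. The null allele keeps the first exons, so counts over the whole gene check the labels only in part. Whole BM is a mixture, and fewer cells of a type cannot be told apart from less RNA per cell.

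One AML WT mouse stood apart, and it is described before the comparisons because they rest on it. AML WT replicate 1 had the lowest level of the 8 mice in 8 of the 9 genes, where it was lowest in 25.2% of all genes. In 5 of the 9 genes (Cd79a, Pax5, Rag1, Ebf1 and Vpreb1) its level was at most 0.5 times that of the next lowest mouse, which was so for 0.729% of all genes. Its level of Rag1 was 11.7% of the median of the other 7 mice, that of Pax5 12.2%, that of Cd79a 13.2%, that of Vpreb1 33.6% and that of Ebf1 37.1%. The other genes were closer to the other mice in AML WT replicate 1, with 53.4% of their median for Blnk, 66.0% for Igll1, 74.8% for Cd79b and 78.8% for Ighm. This library had the most counts of the 8, 39266815, so that even Rag1 was covered by 9 counts in it. Every value below is given with this mouse, and the comparisons are repeated without it.

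**Figure D1:**
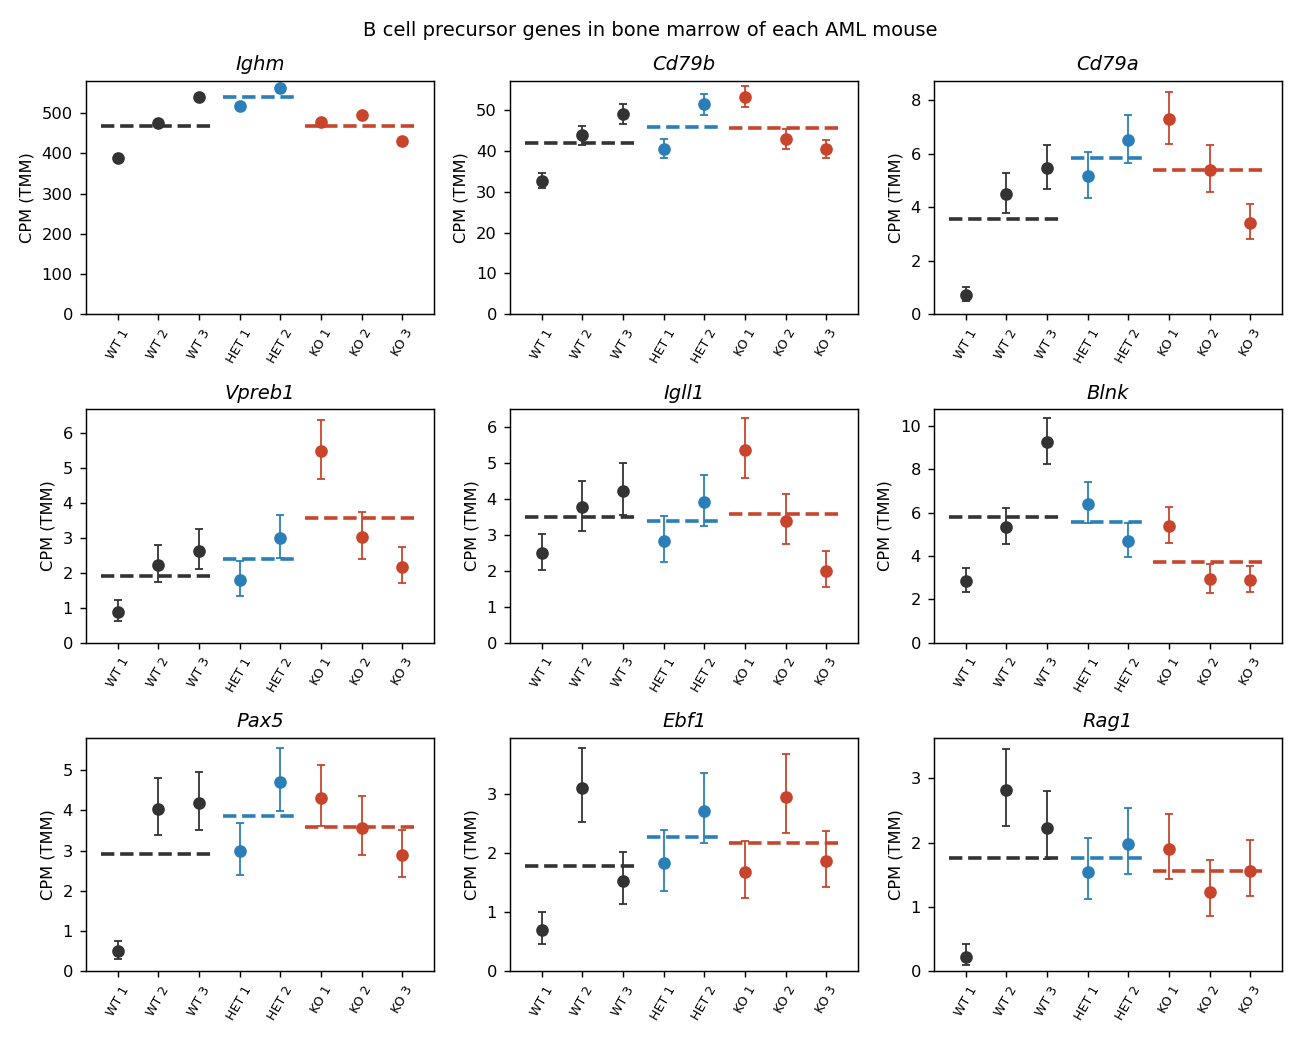
Level of each of the 9 genes in CPM (y axis, from 0, a separate scale per gene) in every mouse (x axis, WT for AML WT, HET for AML HET and KO for AML KO). Points are single mice, bars are exact Poisson 95% intervals that cover counting error only, and dashed lines are group means. AML WT replicate 1 sits near 0 for Cd79a, Pax5 and Rag1, while it reaches 74.8% and 78.8% of the median of the other mice for Cd79b and Ighm.

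None of the 9 genes passed the test of a difference between the Gab2 genotypes. Between AML KO and AML WT, 0 of 9 passed edgeR's quasi-likelihood test at an adjusted p under 0.05, against 2.09% of all genes (278 of 13305), and adjusted p ranged from 0.329 to 0.993. Between AML HET and AML WT, 0 of 9 passed, against 0.0225% of all genes, with adjusted p of 0.990 or more. Between AML KO and AML HET, 0 of 9 passed, against 0% of all genes, with adjusted p of 0.875 or more. At an unadjusted p under 0.05 the count was 0 of 9 in each comparison by edgeR, DESeq2 and limma-voom alike, while edgeR gave 2349, 329 and 780 genes of the whole table, which are 17.7%, 2.47% and 5.86% of it. With sample quality weights in limma-voom, added after the data were seen, the count was 1 of 9 (Blnk), 0 of 9 and 2 of 9 (Ighm and Blnk). The 3 comparisons share mice and are not independent of each other.

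The groups overlapped in nearly all of these genes. In 0 of 9 genes did all AML KO mice lie above or below all AML WT mice, against 22.1% of all genes. The same count was 0 of 9 for AML HET and AML WT, against 18.1%, and 1 of 9 for AML KO and AML HET, against 24.2%. That gene was Ighm, with 430 to 495 CPM in AML KO and 518 and 562 CPM in AML HET mice.

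The median log2 fold change of the 9 genes for AML KO against AML WT was 0.12, with 6 positive and 3 negative values, beside −0.02 for all genes. Without AML WT replicate 1 it was −0.13, with 2 positive and 7 negative values. Between AML HET and AML WT the median was 0.21 with 7 positive values, and without that mouse it was −0.03 with 2 positive values. Other single mice moved the first median too, to −0.00499 (4 positive and 5 negative values) without AML KO replicate 1, 0.07 without AML KO replicate 2, 0.20 without AML WT replicate 3, 0.33 without AML KO replicate 3 and 0.37 without AML WT replicate 2. For AML HET against AML WT it was 0.04 without AML HET replicate 2, 0.33 without AML WT replicate 3 and 0.46 without AML WT replicate 2. Between AML KO and AML HET the median was −0.10, and it was 0.17 without AML HET replicate 2, 0.03 without AML KO replicate 3, −0.25 without AML KO replicate 1 and −0.28 without AML HET replicate 1. No direction of the 9 genes as a group held with every mouse left out in turn.

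**Figure D2:**
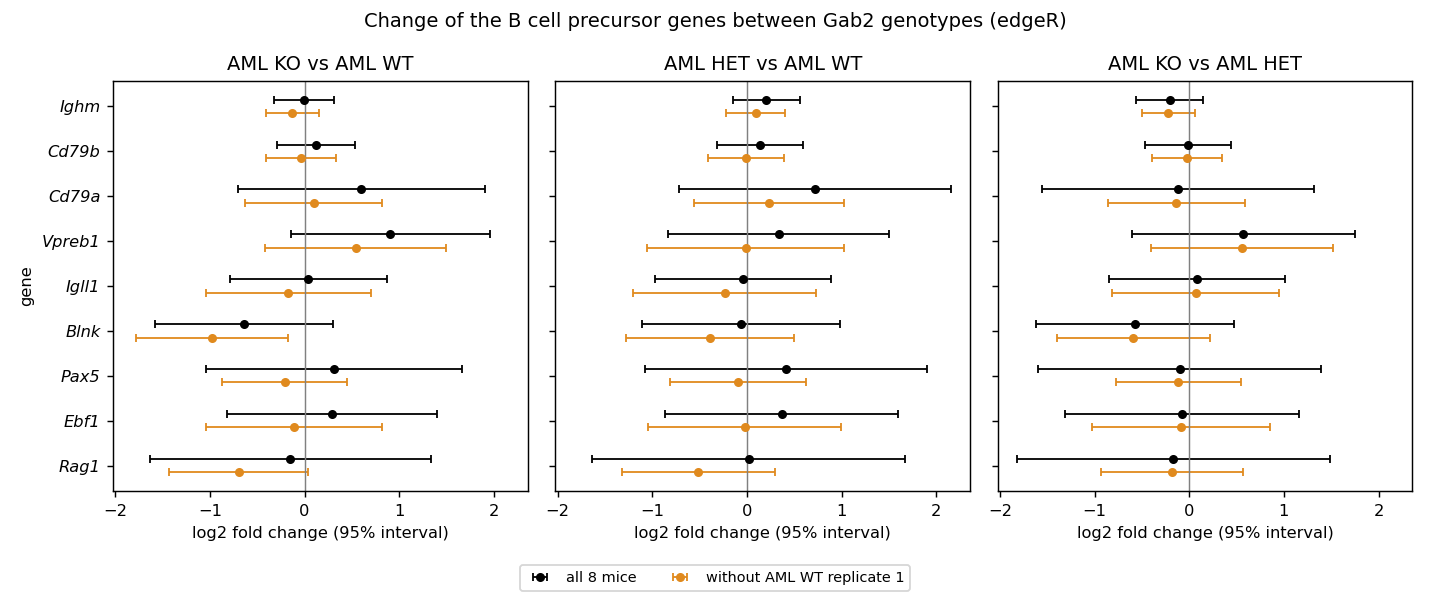
Log2 fold change (x axis) of each of the 9 genes (y axis) between Gab2 genotypes, from edgeR's quasi-likelihood fit to all 8 mice (black) and without AML WT replicate 1 (orange), with 95% intervals. All intervals from 8 mice include 0, and those of Cd79a, Pax5 and Rag1 narrow most when this mouse is left out.

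The heavy chain gene Ighm (chromosome 12, 113418558 to 113422730, minus strand) was by far the most abundant. Its level was 390, 475 and 539 CPM in AML WT, 518 and 562 CPM in AML HET and 477, 495 and 430 CPM in AML KO mice. Group means were 468.1 ± 75.1 (SD, n = 3), 540.2 ± 31.5 (SD, n = 2) and 467.3 ± 33.5 CPM (SD, n = 3). The AML WT range enclosed that of AML KO, and the log2 fold change between them was −0.00 (SE 0.14, 95% interval −0.32 to 0.32). The interval corresponds to a ratio of 0.801 to 1.24. A gene count does not separate transcripts of a rearranged heavy chain from germline transcripts of the constant region.

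Cd79a and Cd79b encode the 2 subunits of 1 signaling dimer. In both, AML WT replicate 1 was the lowest mouse and AML KO replicate 1 the highest. They differed in level and in how far AML WT replicate 1 lay below the other mice. Cd79b (chromosome 11, 106311341 to 106314762, minus strand) had 32.8, 43.8 and 49.0 CPM in AML WT, 40.6 and 51.5 CPM in AML HET and 53.3, 43.0 and 40.4 CPM in AML KO mice. The groups overlapped, and the log2 fold change of AML KO against AML WT was 0.12 (SE 0.18, 95% interval −0.29 to 0.53). Cd79a (chromosome 7, 24897381 to 24902197, plus strand) had 0.713, 4.49 and 5.45 CPM in AML WT, 5.15 and 6.50 CPM in AML HET and 7.29, 5.39 and 3.42 CPM in AML KO mice. Apart from AML WT replicate 1, with 29 counts against 116 to 223, the mice of the 3 groups overlapped. Its log2 fold change of AML KO against AML WT was 0.60 (SE 0.58, 95% interval −0.70 to 1.91), and 0.10 (95% interval −0.63 to 0.82) without this mouse.

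The surrogate light chain genes lie 4418 bases apart on the minus strand of chromosome 16, Igll1 from 16860671 to 16863985 and Vpreb1 from 16868403 to 16870843. Vpreb1 had 0.885, 2.21 and 2.63 CPM in AML WT, 1.79 and 3.00 CPM in AML HET and 5.49, 3.02 and 2.18 CPM in AML KO mice. The highest mouse was AML KO replicate 1, and AML KO replicate 3 lay within the AML WT range. Of the 9 genes it had the largest log2 fold change of AML KO against AML WT, 0.91 (SE 0.47, 95% interval −0.14 to 1.96, adjusted p = 0.329 by edgeR), which was 0.54 (95% interval −0.41 to 1.50) without AML WT replicate 1. It was 0.45 without AML KO replicate 1 and 1.21 without AML WT replicate 3, the lowest and highest values with a single mouse left out. Igll1 had 2.48, 3.76 and 4.22 CPM in AML WT, 2.84 and 3.92 CPM in AML HET and 5.36, 3.38 and 2.00 CPM in AML KO mice. Both the highest and the lowest mouse were AML KO mice, and the log2 fold change was 0.04 (SE 0.37, 95% interval −0.79 to 0.87). Of the 50-base words of Vpreb1's exons, 18.8% also occur in its copy Vpreb2, which was not among the genes analysed here, and the exons of Top3b overlap Vpreb1 on the other strand. Strand use in counting is not given in the sources used here, so Vpreb1's level is less certain than that of the others.

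Blnk (chromosome 19, 40928927 to 40994535, minus strand), the adaptor that links the receptor to phospholipase C, had its lowest group mean in AML KO mice. Levels were 2.85, 5.34 and 9.25 CPM in AML WT, 6.42 and 4.68 CPM in AML HET and 5.36, 2.91 and 2.89 CPM in AML KO mice. AML WT spanned the whole AML KO range, and the log2 fold change was −0.64 (SE 0.42, 95% interval −1.59 to 0.31, adjusted p = 0.414 by edgeR). Without AML WT replicate 1 it was −0.98 (95% interval −1.79 to −0.18), which passed an unadjusted p of 0.05 but not the adjusted test (adjusted p = 0.317). It was −0.999 without AML KO replicate 1 and −0.14 without AML WT replicate 3, the mouse with the highest level of Blnk. Blnk is also expressed by macrophages, and the summed level of the monocyte and macrophage markers was 3355 to 3824 CPM in AML WT, 3268 to 3565 CPM in AML HET and 2669 to 3527 CPM in AML KO mice. Their part in the values of Blnk was not tested.

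The transcription factor genes were low. Pax5 (chromosome 4, 44524757 to 44710487, minus strand) had 0.492, 4.05 and 4.19 CPM in AML WT, 2.98 and 4.72 CPM in AML HET and 4.32, 3.57 and 2.89 CPM in AML KO mice. Leaving aside AML WT replicate 1, all mice lay within 2.89 and 4.72 CPM. The log2 fold change of AML KO against AML WT was 0.31 (SE 0.60, 95% interval −1.04 to 1.66) and −0.21 (95% interval −0.87 to 0.45) without this mouse. Ebf1 (chromosome 11, 44617317 to 45008091, plus strand) had 0.688, 3.10 and 1.53 CPM in AML WT, 1.82 and 2.71 CPM in AML HET and 1.67, 2.95 and 1.86 CPM in AML KO mice. Its order of the mice differed from that of Pax5, since AML WT replicate 2 and AML KO replicate 2 were highest. The log2 fold change was 0.29 (SE 0.50, 95% interval −0.82 to 1.40).

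The recombinase gene Rag1 (chromosome 2, 101638282 to 101649501, minus strand) had 0.221, 2.81 and 2.23 CPM in AML WT, 1.54 and 1.98 CPM in AML HET and 1.90, 1.24 and 1.56 CPM in AML KO mice. AML WT held both the lowest and the highest mouse, with 9 and 89 counts. The log2 fold change of AML KO against AML WT was −0.15 (SE 0.66, 95% interval −1.64 to 1.33). Without AML WT replicate 1 it was −0.70 (95% interval −1.43 to 0.04), with all 3 AML KO mice below the remaining AML WT mice. Rag1 shares exon sequence with the overlapping gene B230118H07Rik on the same strand, so its reads may be split between them.

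Per kilobase of exon, the 9 genes spanned 3 orders of magnitude. The median mouse had 258 CPM per kilobase for Ighm and 30.3 for Cd79b, above 98.6% and 86.6% of all genes. The others followed with 3.62 for Cd79a, 2.02 for Vpreb1, 1.65 for Igll1, 0.837 for Blnk, 0.430 for Pax5, 0.262 for Rag1 and 0.189 for Ebf1. The order from Ighm to Cd79b to Cd79a held in 8 of 8 mice, with no overlap of their ranges. From Cd79a down, the ranges of neighbors overlapped, and the order of Rag1 and Ebf1 held in 6 of 8 mice. Within a mouse, Cd79b thus exceeded Cd79a per kilobase by 7.44 to 12.0 times in 7 mice and 46.8 times in AML WT replicate 1.

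The spread between mice of the same genotype divided the genes the same way. The SD of log2 CPM within groups was 0.17 for Ighm and 0.25 for Cd79b, near the median of 0.24 over all genes. It was 1.19 for Rag1, 1.10 for Pax5 and 1.05 for Cd79a, larger than in 99.5%, 99.3% and 99.1% of all genes, and these fell to 0.27, 0.31 and 0.41 without AML WT replicate 1. Without this mouse the SD was 0.50 for Ebf1, 0.54 for Vpreb1, 0.52 for Igll1 and 0.48 for Blnk. These values, and those of Rag1, Pax5 and Cd79a without this mouse, were above 0.24. That median of all genes includes AML WT replicate 1, so the values compared are not from the same mice.

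Ratios within a mouse do not depend on library size. The ratio of Ighm to Cd79a counts was 547 (95% counting interval 380 to 816) in AML WT replicate 1 and 65.4 to 126 in the other 7 mice. The ratio of Cd79b to Cd79a was 46.0 (31.9 to 68.9) in this mouse and 7.31 to 11.8 in the others. By contrast, the ratio of Ighm to Cd79b was 11.9 in it and 8.95 to 12.8 in the others. AML WT replicate 1 therefore lay within the range of the other mice for the ratio of Ighm to Cd79b and outside it for both ratios to Cd79a.

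**Figure D3:**
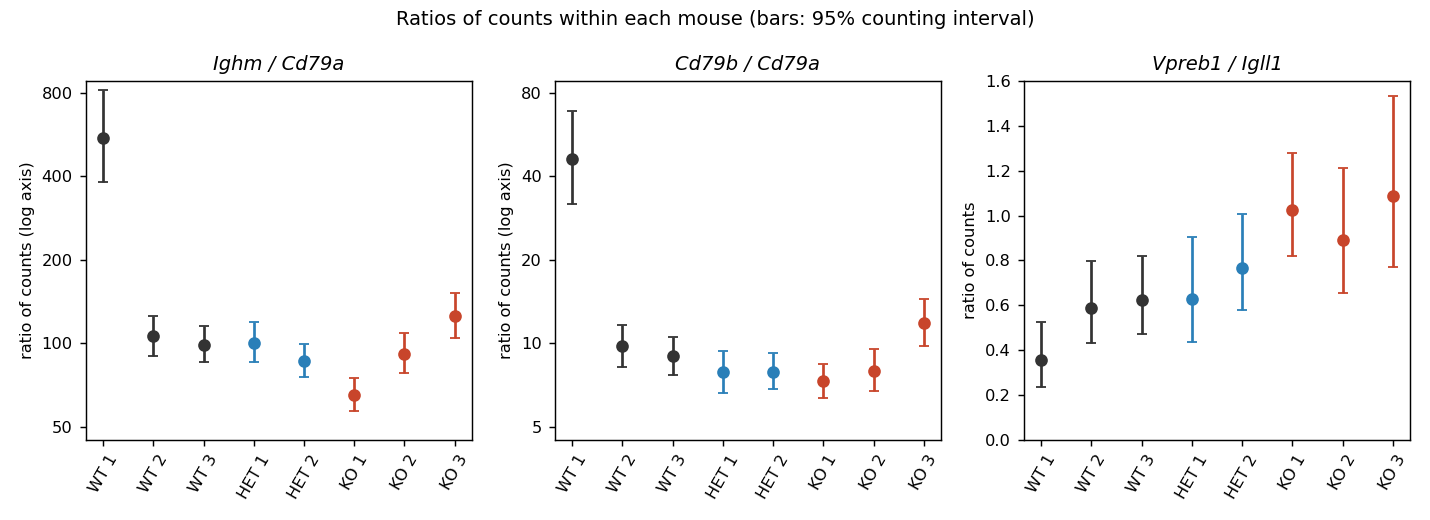
Ratios of counts within each mouse (y axes, log scale for the left and middle panels) for Ighm to Cd79a, Cd79b to Cd79a and Vpreb1 to Igll1. Bars are 95% counting intervals from the binomial share (Clopper-Pearson), and AML WT replicate 1 lies at 547 and 46.0 in the first panels.

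The summed level of the 9 genes was 431 to 618 CPM in AML WT, 581 and 641 CPM in AML HET and 487 to 562 CPM in AML KO mice, and 84.9% to 90.5% of it came from Ighm. The sum therefore described Ighm. Without Ighm and Cd79b, the other 7 genes summed to 8.33, 25.8 and 29.5 CPM in AML WT, 22.5 and 27.5 CPM in AML HET and 31.4, 22.5 and 16.8 CPM in AML KO mice. AML WT replicate 1 lay below all others, and the rest overlapped.

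The wider B lineage list held 70 genes of the pre-B and B cell receptor, its signaling, B cell transcription factors, V(D)J recombination, early and mature surface markers and plasma cells, of which 62 were present, the 9 genes included. Between AML KO and AML WT, 2 of 62 rose and 0 fell by edgeR's quasi-likelihood test, against 2.09% of all genes called, and 14 of 62 had an unadjusted p under 0.05, against 17.7% of all genes. Their fold changes were balanced, with 31 positive and 31 negative values and a median of 0.01. In the other comparisons 0 passed. At an unadjusted p under 0.05 there was 1 of 62 between AML HET and AML WT, against 2.47% of all genes, and 4 of 62 between AML KO and AML HET, against 5.86%. These counts were near those of the whole table, and the genes that rose are described singly.

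The 2 genes that rose do not belong to the precursor stage alone. Jchain, which joins secreted antibody molecules and is used by plasma cells, had 0.270, 0.348 and 0.459 CPM in AML WT, 0.701 and 0.892 CPM in AML HET and 3.01, 1.13 and 3.62 CPM in AML KO mice (AML KO against AML WT, log2 fold change 2.85, SE 0.48, edgeR adjusted p = 0.017). Its AML WT mice held only 11 to 15 counts each. The plasma cell list as a whole did not rise with it. Of its 7 genes present, Jchain included, 3 had a positive and 4 a negative log2 fold change of AML KO against AML WT (median −0.07). By edgeR, 3 of the 7 had an unadjusted p under 0.05, against 17.7% of all genes. Igha, also on this list, had a log2 fold change of 2.54 (SE 0.98, edgeR adjusted p = 0.245) at few counts. Cd24a, a surface protein of immature B cells that erythroid and neutrophil cells also carry, had 157, 142 and 151 CPM in AML WT, 187 and 204 CPM in AML HET and 260, 223 and 219 CPM in AML KO mice (log2 fold change 0.64, SE 0.12, edgeR adjusted p = 0.024). The groups did not overlap in either gene. Leaving out single mice moved the adjusted p past 0.05 in 4 of 8 fits for Jchain and in 6 of 8 for Cd24a.

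Markers of other cells moved with Cd24a. The summed level of the 10 erythroid markers was 223 to 336 CPM in AML WT, 553 and 2073 CPM in AML HET and 1453 to 5198 CPM in AML KO mice, and 9 of them passed the test. The 10 neutrophil markers summed to 1279 to 4669, 5376 and 6050, and 10403 to 17056 CPM, with 6 passing. Their part in the change of Cd24a was not tested.

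Apart from Cd24a, no early B cell surface gene was called. Il7r, the receptor of the main growth factor of mouse B cell precursors, had 3.47, 3.26 and 7.72 CPM in AML WT, 5.01 and 3.09 CPM in AML HET and 1.44, 2.11 and 2.06 CPM in AML KO mice. All AML KO mice lay below all others, and the log2 fold change against AML WT was −1.36 (SE 0.39, edgeR adjusted p = 0.135). Dntt, which adds bases at the joints during recombination, had 13.1 to 15.6, 15.6 and 22.4, and 13.7 to 17.7 CPM in the same order of genotypes (log2 fold change 0.12, SE 0.18). Rag2 and Ms4a1 were not among the genes analysed here.

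Other genes singled out by a fixed rule had adjusted p above 0.05 as well by edgeR. Log2 fold changes of AML KO against AML WT were 2.54 (SE 0.98) for the heavy chain gene Igha, 1.45 (SE 0.56) for the light chain gene Igkc and 1.00 (SE 0.60) for Vpreb3. They were −0.33 (SE 0.30) for Ighd, −0.79 (SE 0.22) for the transcription factor Spib and −0.59 (SE 0.20) for Bach2. Igha had 0 counts in AML WT replicate 2, which allows up to 0.0948 CPM, and its fold change depends on the prior count. Cd74, the invariant chain of antigen presentation, which myeloid cells also use, had −1.21 (SE 0.29, adjusted p = 0.074), and the IgE receptor Fcer2a −1.16 (SE 0.40). The recombination genes Dclre1c and Prkdc had −0.79 (SE 0.21) and −0.55 (SE 0.23), and the signaling adaptor Pik3ap1 −0.52 (SE 0.24).

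AML WT replicate 1 was far below the other mice in some genes of this list. It lay at or below 0.5 times the next lowest mouse in 5 of the 53 genes outside the 9, Pou2af1, Vpreb3, Igkc, Blk and Cxcr5, against 0.729% of all genes, and it was lowest in 13 of the 53, against 25.2% of all genes. Pou2af1, a coactivator of immunoglobulin genes, had 0.246, 2.81 and 3.21 CPM in AML WT against 2.03 to 4.30 CPM in the other groups. Dntt and Ighd did not share this pattern, with 13.7 and 2.66 CPM in this mouse, against 13.1 and 2.07 CPM in the lowest other mouse.

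T and NK cell markers were also low in this mouse. Of the 16 on the list, it was lowest in 11 and at or below 0.5 times the next lowest mouse in 4, Cd3e, Cd3d, Cd2 and Trbc2, against 25.2% and 0.729% of all genes. Their summed level was 158 to 242 CPM in AML WT, 216 and 247 CPM in AML HET and 239 to 275 CPM in AML KO mice. Of the mature neutrophil markers it was lowest in 7 of 10 and at or below 0.5 times the next lowest mouse in 5, and of the erythroid markers lowest in 9 of 10 and at or below 0.5 times in 3, against the same shares of all genes. Plasmacytoid dendritic cell markers, a cell type that also uses several B lineage genes, summed to 971 to 1083, 1001 and 1050, and 936 to 1036 CPM, and this mouse was lowest in 1 of the 10 and at or below 0.5 times the next lowest in 0. Of these 10 markers, 8 had a negative log2 fold change of AML KO against AML WT (median −0.53), 5 had an unadjusted p under 0.05 and 1, Cd209d, fell by edgeR's test (log2 fold change −1.40, SE 0.27, adjusted p = 0.033). The adjusted p of Cd209d was over 0.05 in 4 of 8 fits with a single mouse left out, those without AML WT replicates 2 and 3 and AML KO replicates 2 and 3. The part of other cells in the low values of AML WT replicate 1 was not tested.

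**Figure D4:**
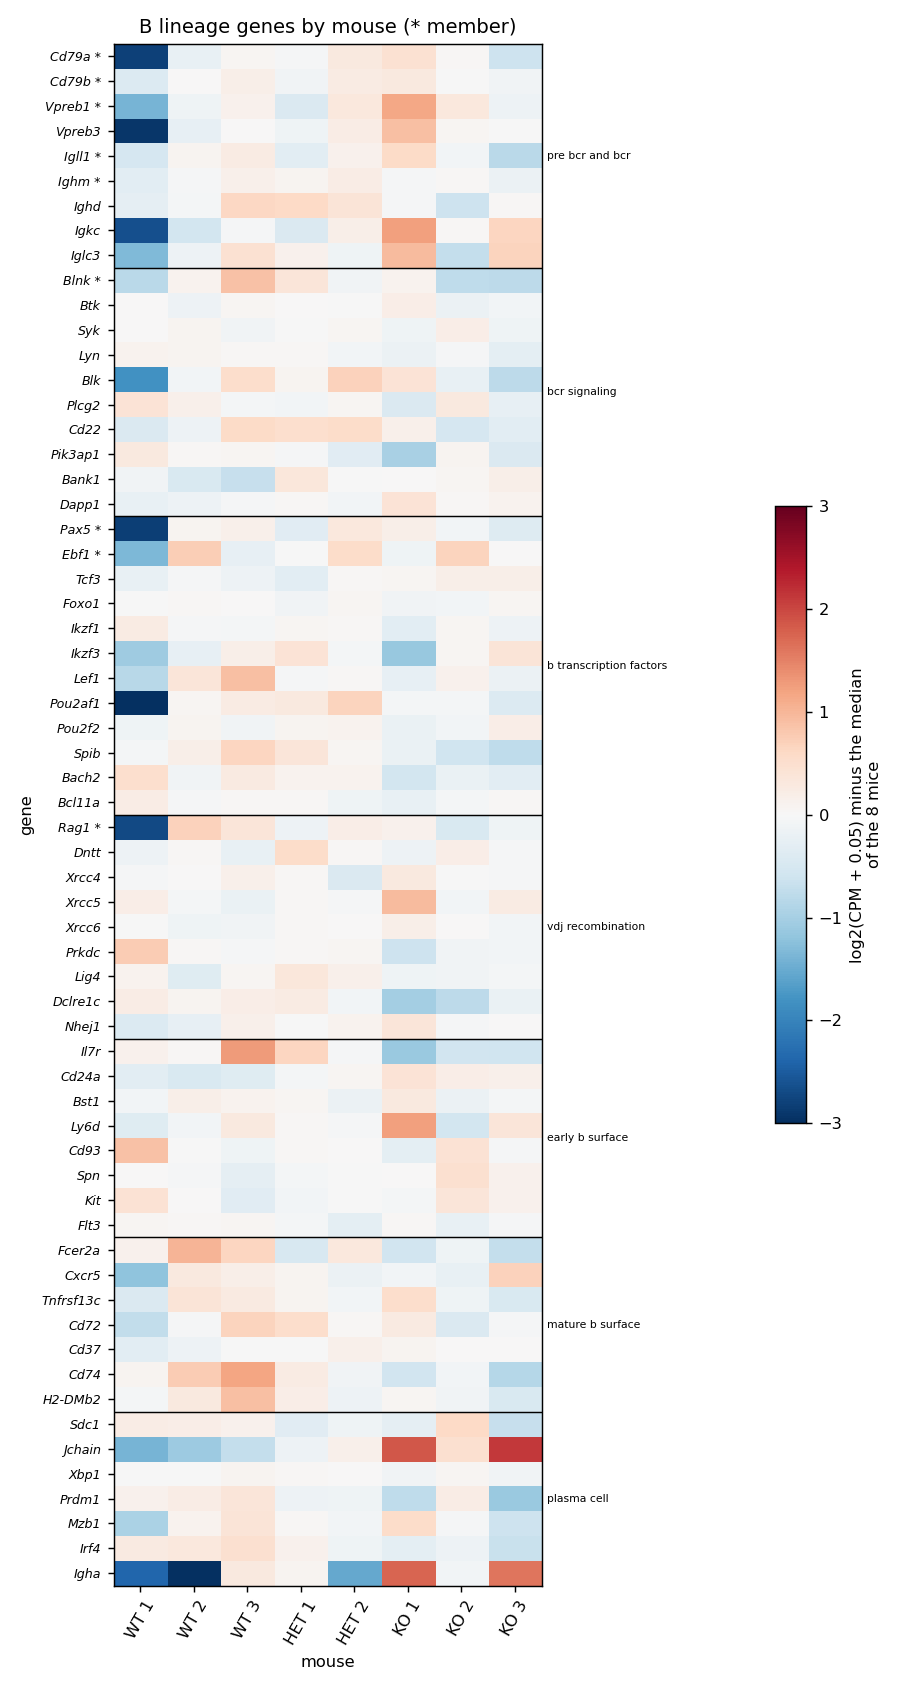
Level of the 62 B lineage genes (rows, grouped by list, asterisks mark the 9 genes) in each mouse (columns), as log2(CPM + 0.05) minus the median of the 8 mice, with colors capped at 3 in either direction. The column of AML WT replicate 1 is blue for Cd79a, Pax5, Rag1, Pou2af1, Vpreb3 and Igkc and pale for Ighm, Cd79b and Dntt, and Jchain is red in AML KO replicates 1 and 3.

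The genes whose pattern over the 8 mice was most like the mean of the 9 were searched in the whole table. Pearson's correlation with that mean was among the highest for Arhgap9 (0.983), Atp5j (0.981), Vegfb (0.968), Pitpna (0.966), Ccdc102a (0.963), Rras (0.963), Fxyd5 (0.961), Coa6 (0.959) and Egln1 (0.958). AML WT replicate 1 was the lowest mouse in all 9 of these, and they varied over less than 1 log2 unit. All of these correlations are over the same 8 libraries. Without AML WT replicate 1, they were 0.841 to 0.963 in 7 of the 9 genes, 0.718 for Coa6 and 0.699 for Ccdc102a. The genes were picked for their correlation over all 8 mice, so these values are no separate check. Among the B cell precursor genes, each a part of the mean, Ebf1 had a correlation of 0.04 with it without this mouse. Ighm, Blnk and Rag1 had 0.58, and the others 0.63 to 0.97.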

How the data were processed

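Whole BM RNA of 8 mice was sequenced on an Illumina HiSeq4000. The authors deposited raw counts per gene, which the submitters' processing notes tie to Trimmomatic 0.36, STAR 2.5.2b and mm10. The program that counted reads, its annotation and its use of strand are not given in the sources used here. The lowest sum of a listed gene over all mice was 106 counts, and rarer genes are not listed.

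Identifiers were matched to GENCODE M21 (13266 found, 39 not). Counts were fitted with edgeR 4.0.16 (TMM, robust quasi-likelihood test, all 8 mice, genotype as the only term) in R 4.3.3, and p was adjusted by Benjamini-Hochberg over 13305 genes with a threshold of 0.05. filterByExpr removed 0 genes. SEs were derived from the F statistic, 95% intervals from the t distribution of the fit, and counting intervals are exact Poisson or Clopper-Pearson. Reads are not unique molecules, so these cover counting error only. The labels do not say that the mice are littermates. Between mice sharing a number, deviations from the group means had correlations from −0.509 to 0.289, which cannot decide whether they are paired. Counts of AML KO against AML WT were also simulated over 13305 genes. The fit found 61 of 100 genes changed 2-fold and 95 of 100 changed 4-fold, and called 19 unchanged genes. These shares are not specific to the B cell precursor genes, which varied more between mice. Their median SD of log2 CPM within groups was 0.70, beside 0.24 for all genes. The share found among genes with such a spread was not tested. Figures were drawn with matplotlib 3.10.9.

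The 9 genes and all lists were chosen with earlier results of these data known. Named beyond them were B lineage genes past the threshold, Rag2, Il7r, Dntt, Ms4a1, Vpreb3, Ighd, Igkc, Jchain, the 2 genes of each B lineage list with the largest fold change of AML KO against AML WT, the 10 genes most like the mean of the 9 (log2 CPM, prior count 2) and Gab2. A gene that met this rule is not reported here and was left out of the lists. Pou2af1, Blk, Cxcr5, Cd209d and the T and NK cell genes were named after their values were seen. Alternatives were DESeq2 1.42.0, limma-voom (limma 3.58.1), other normalizations and filters, the groups compared alone, a replicate block and each mouse left out. Sample quality weights, and the sum without Ighm and Cd79b, were added after seeing the data.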

Additional observations from a re-analysis of the deposited data

How the results depend on the processing

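The 9 genes passed the threshold in 0 of their 486 values under alternatives, and the sign changed in 54 of them, 38 of which left out a mouse. The lowest adjusted p of a member in any setting was 0.146 for AML KO against AML WT, 0.775 for AML HET against AML WT and 0.3596 for AML KO against AML HET. The summed level of the 9 genes moved by less than the spread between mice under every alternative run for it. The causes of the changes below were not tested. Depth limits Rag1 most, with 9 counts in its lowest mouse.

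The number of genes called in the whole table between AML KO and AML WT, 278 by edgeR, was 730 with DESeq2 and 797 with sample quality weights, and ranged from 40 to 370 as mice were left out (40 with AML WT replicate 2 left out, 167 with AML WT replicate 1, 137 with AML KO replicate 1 and 123 with AML KO replicate 3). Between AML HET and AML WT it was 59 with DESeq2, 1 with limma-voom, 10 with quality weights, 5 with only the groups compared and 1 to 5 without single mice, against 3. Between AML KO and AML HET it was 77 with DESeq2, 48 with quality weights, 3 with only the groups compared and 0 to 4 without single mice, against 0.

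With the replicate number as a block, 19 genes were called between AML KO and AML WT and 0 between AML HET and AML WT. Log2 fold changes between AML KO and AML WT that turned under the block were −0.00654 for Igll1, 0.00746 for Ighm and 0.12 for Rag1, and between AML HET and AML WT 0.10 for Blnk. Correlations of deviations between mice with the same number ran from −0.509 to 0.289. Deviations from the means of so few mice are tied to each other, so these values cannot decide whether the numbers pair the mice. Jchain, Cd24a and Gab2 were not called under the block. Of the genes outside the 9, Cd74, Dclre1c, Il7r and Spib passed between AML KO and AML WT with DESeq2, Cd74, Fcer2a, Igha and Spib with sample quality weights, and Cd74, Dclre1c and Igha in some fits that left out a mouse.

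Log2 fold changes between AML KO and AML WT also turned with limma-voom for Igll1 (−0.0333), Ighm (0.00681), and Rag1 (0.56), and for Ighm with upper-quartile normalization (0.0191). With sample quality weights they turned for Cd79b (−0.0595), Pax5 (−0.0797), Ebf1 (−0.17), Igll1 (−0.62), Arhgap9 (−0.0959), Atp5j (−0.11), Egln1 (−0.0508), Fxyd5 (−0.0381), Pitpna (−0.0785), Rras (−0.19) and Vegfb (−0.13). In the other comparisons Blnk turned with limma-voom (AML HET against AML WT, 0.11), Rag1 with quality weights (AML HET against AML WT, −0.22) and Igll1 with limma-voom (−0.0328) and quality weights (−0.47) between AML KO and AML HET.

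Leaving out single mice, log2 fold changes between AML KO and AML WT ran from −0.0377 to 0.25 for Cd79b, −0.11 to 0.96 for Ebf1, −0.13 to 0.11 for Ighm, −0.38 to 0.33 for Igll1, −0.21 to 0.67 for Pax5, −0.70 to 0.37 for Rag1, −0.0777 to 0.12 for Arhgap9, −0.0887 to 0.15 for Atp5j, −0.0167 to 0.34 for Ccdc102a, −0.0328 to 0.22 for Coa6, −0.0194 to 0.12 for Egln1, −0.0253 to 0.28 for Fxyd5, −0.0806 to 0.0996 for Pitpna, −0.0841 to 0.30 for Rras and −0.11 to 0.17 for Vegfb. Between AML HET and AML WT they ran from −0.39 to 0.45 for Blnk, −0.0443 to 0.30 for Cd79b, −0.0254 to 1.04 for Ebf1, −0.29 to 0.17 for Igll1, −0.0947 to 0.78 for Pax5, −0.52 to 0.54 for Rag1 and −0.0878 to 0.66 for Vpreb1. Between AML KO and AML HET they ran from −0.40 to 0.12 for Cd79a, −0.18 to 0.17 for Cd79b, −0.37 to 0.24 for Ebf1, −0.33 to 0.37 for Igll1, −0.39 to 0.27 for Pax5 and −0.33 to 0.0228 for Rag1.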

Other observations

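The proportion of the surrogate light chain genes to each other was noticed after the values were seen. The ratio of Vpreb1 to Igll1 counts was 0.356, 0.588 and 0.623 in AML WT, 0.630 and 0.764 in AML HET and 1.02, 0.892 and 1.09 in AML KO mice. Group means were 0.523 ± 0.145 (SD, n = 3), 0.697 ± 0.0952 (SD, n = 2) and 1.00 ± 0.0998 (SD, n = 3), and the groups did not overlap. An exact two-sided permutation test of AML KO against AML WT gave p = 0.1, the smallest value that 3 against 3 mice allow, so the design cannot pass 0.05. Any 3 against 3 mice without overlap give this p, and the ratio was chosen with its values known, so the p adds nothing. For levels of single genes, AML KO and AML WT mice did not overlap in 22.1% of all genes. Neither gene alone passed the test, and counting intervals of single mice overlapped between groups, for example 0.470 to 0.822 in AML WT replicate 3 and 0.656 to 1.21 in AML KO replicate 2. Vpreb1 shares sequence with Vpreb2, whose part in this ratio was not tested.

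Heavy chain joining segments, also chosen after their values were seen, were present in AML WT replicate 1 at levels within those of the other mice. Ighj1 had 1.60, 1.58 and 1.78 CPM in AML WT, 1.89 and 1.94 CPM in AML HET and 1.08, 1.27 and 1.15 CPM in AML KO mice. The AML KO mice lay below the other mice in this gene (log2 fold change against AML WT −0.50, SE 0.26, edgeR adjusted p = 0.332) and in Ighj4. AML KO and AML WT mice did not overlap in 22.1% of all genes. Ighj2, Ighj3 and Ighj4 had log2 fold changes of −1.004 (SE 0.58), −1.44 (SE 0.49) and −1.01 (SE 0.41) in the same comparison, with edgeR adjusted p of 0.366, 0.211 and 0.254. The heavy chain variable segment Ighv1-41 went the other way (log2 fold change 0.90, SE 0.42, edgeR adjusted p = 0.294).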
